A study of Caenorhabditis elegans with 3 samples.

Results

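The 31 genes described here act in the Caenorhabditis elegans epidermis, in the lateral seam cells or in molting, and were taken by name from a list. All 31 were found among the 19973 nuclear protein-coding genes of the Ensembl annotation on WBcel235, the assembly also called ce11. Chromatin immunoprecipitation followed by sequencing (ChIP-seq) mapped tagged EGL-27, a relative of the vertebrate MTA proteins with a GATA-type zinc finger, along the genome. The material was whole larvae of mixed sex at L4, the last larval stage. Every animal was of strain OP177, with the unc-119(ed3) III mutation and the wgIs177 transgene, which makes EGL-27 joined at its C-terminus to GFP and FLAG. The data are 1 group of 3 libraries, called biological replicates 1, 2 and 4 in the labels, with no second strain, stage or treatment. All 3 come from 1 transgenic line, and neither the expression domain nor the genomic extent of the transgene is stated there. In whole larvae, a peak in epidermal cells and a peak in any other tissue cannot be told apart.

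Seam cells are lateral epidermal stem cells that divide at each larval stage, give daughters to the surrounding syncytium and at the end of larval life fuse and make cuticle ridges called alae. Their divisions and fates depend on a Runx factor with its CBFbeta partner, on an Engrailed homeodomain protein and on nuclear receptors. At each molt the epidermis renews its apical matrix and sheds the old cuticle, with waves of expression of matrix proteins, Hedgehog-related and Patched-related proteins and proteases. EGL-27 is known from genetics for roles in cell polarity and fate, seam cells included.

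Almost all of the 31 genes carried EGL-27 peaks in the long, permissive peak list, and none carried a peak in the reproducible list. A gene was counted where a peak's summit, its highest point, lay in the gene body or within 2000 bp of a transcript start. Of the 31 members, 0 had a peak in the reproducible list of 102 peaks, against 0.566% of all protein-coding genes by the same rule. With 31 genes, a count of 0 allows a share of up to 9.68% by the limit of 3 counts, and 11.2% by the exact 95% binomial interval, so the background share is far below what this many genes can show. The pooled list of 30000 peaks, made from the 3 libraries together and by its deposited name holding background as well as peaks, reached 28 members (90.3%), against 77.3% of all protein-coding genes. The exact 95% binomial interval of the members' share runs from 74.2% to 98.0% and covers counting error only. The 3 members without a pooled peak were bro-1, the CBFbeta partner of the Runx factor, nhr-73, a nuclear receptor gene, and grd-10, a Hedgehog-related gene. In single libraries, peaks lay at 16 members in replicate 1 (51.6%, against 39.9% of all genes), 21 in replicate 2 (67.7%, against 49.9%) and 10 in replicate 4 (32.3%, against 28.7%). The background shares of replicates 1 and 4 lie inside the members' intervals, and that of replicate 2 inside its interval from 48.6% to 83.3%. The lists hold 9666, 13686 and 6636 peaks in replicates 1, 2 and 4, and the background share is higher for the longer lists.

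**Figure D1:**
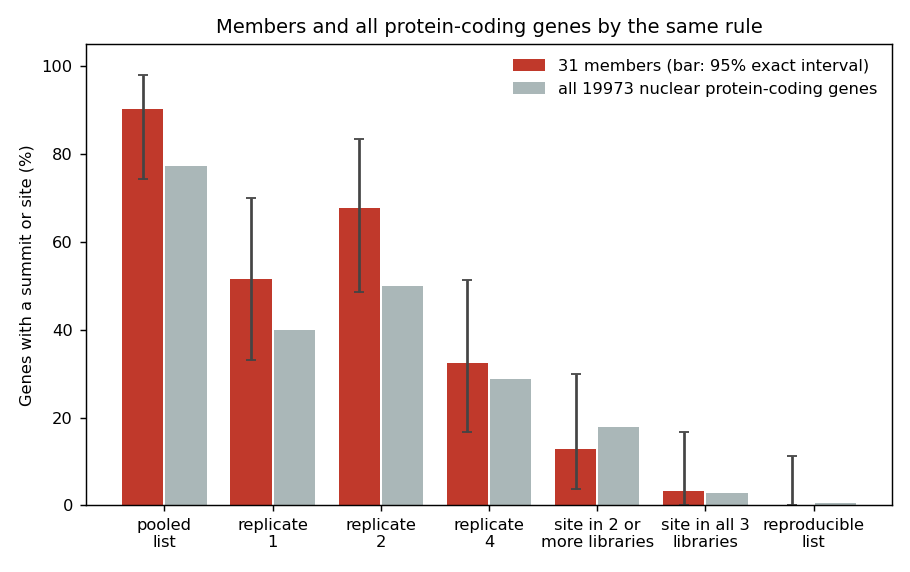
Share of genes, in percent, with a summit in each peak list or with a site shared between libraries, for the 31 members (red, with exact 95% binomial intervals) and for all 19973 nuclear protein-coding genes (grey). The members are above the background in the pooled and single-library lists, below it for sites in 2 or more libraries, and at 0 in the reproducible list.

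Few members had peaks at the same place in several libraries. A site was a lone library peak or a chain of library peaks that overlapped by at least 1 bp. It was shared where it held peaks of different libraries. In 1 member, dlg-1, a site was shared by all 3 libraries (3.23%, against 2.93% of all protein-coding genes). In 4 members, dlg-1, ajm-1, qua-1 and blmp-1, a site was shared by 2 or more libraries (12.9%, with an exact interval from 3.63% to 29.8%, against 17.7%). The first 3 of these genes encode an apical junction scaffold of the Discs large family, a coiled-coil protein of the same junction, and a Hedgehog-related protein needed for molting. The fourth encodes the worm's Blimp-1 homologue, a transcriptional regulator of epidermal development.

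The sequences at the middle of the shared sites of dlg-1, ajm-1 and qua-1 are printed as examples of sites shared between libraries at the members. The shared site of blmp-1 is described below by its values only. Each printed sequence runs for 201 bases on the + strand of ce11 and is centred on the median of the library summits. The dlg-1 stretch holds the replicate 1 summit only, and the distal qua-1 stretch holds neither of its library summits. The other stretches hold the summits of both of their libraries. The dlg-1 site is read from chrX:5478171-5478371, and its capitals mark the 128 bases of the annotated ncRNA gene C25F6.17. The first ajm-1 site is read from chrX:9085860-9086060, with 28 bases of the ncRNA gene H08J11.4 in capitals. The second is read from chrX:9091148-9091348, with 60 bases of a pair of tRNA genes in capitals. The ncRNA genes H08J11.7 and H08J11.13 also cover nearly all of this last stretch and are left in lower case there, so that the tRNA genes can be seen. The qua-1 sites, at chrII:8196926-8197126 and chrII:8198162-8198362, overlap no annotated RNA gene and are in lower case throughout.
dlg-1 upstream site: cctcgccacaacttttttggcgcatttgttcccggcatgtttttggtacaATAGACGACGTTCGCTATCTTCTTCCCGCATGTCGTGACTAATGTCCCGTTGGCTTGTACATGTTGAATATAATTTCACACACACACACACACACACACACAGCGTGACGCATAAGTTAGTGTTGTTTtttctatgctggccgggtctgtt
ajm-1 first intronic site: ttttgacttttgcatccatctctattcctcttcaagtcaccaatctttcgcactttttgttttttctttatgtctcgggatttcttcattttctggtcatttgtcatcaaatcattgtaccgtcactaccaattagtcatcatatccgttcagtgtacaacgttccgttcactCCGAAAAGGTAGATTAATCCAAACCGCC
ajm-1 tRNA site: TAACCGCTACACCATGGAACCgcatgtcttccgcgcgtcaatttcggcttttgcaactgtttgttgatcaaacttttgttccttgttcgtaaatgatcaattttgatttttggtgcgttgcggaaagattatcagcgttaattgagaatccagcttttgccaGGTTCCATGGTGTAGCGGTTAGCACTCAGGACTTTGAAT
qua-1 distal site: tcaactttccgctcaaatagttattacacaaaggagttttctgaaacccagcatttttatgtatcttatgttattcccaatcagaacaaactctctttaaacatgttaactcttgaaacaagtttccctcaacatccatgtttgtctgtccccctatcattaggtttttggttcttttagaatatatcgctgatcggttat
qua-1 proximal site: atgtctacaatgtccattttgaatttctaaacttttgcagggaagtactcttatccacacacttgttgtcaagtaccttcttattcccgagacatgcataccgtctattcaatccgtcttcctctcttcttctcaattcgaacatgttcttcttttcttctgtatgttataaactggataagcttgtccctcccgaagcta
The dlg-1 sequence holds a run of CA repeats 26 bases long, inside the capitals. Runs of 12 bases or more lie within 100 bp of 2.08% of the members' pooled summits (2 of 96) and 0.68% of all 30000. The GATA-type word TGATAA occurs in the ajm-1 tRNA site, on the reverse strand, and in none of the other 4. All 166 words of 36 bases in the dlg-1 site occur once in the nuclear genome, as do those of the first ajm-1 site and both qua-1 sites. At the ajm-1 tRNA site 161 of 166 do (97.0%).

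At dlg-1 the shared site lies upstream of the gene and is a chain of peaks rather than a single summit. It covers chrX:5477670-5478633 (964 bp), and the replicate 1 summit stands 1429 bp upstream of the dlg-1 start and 50 bp from the start of C25F6.17. The deposited signal was 3.37 in replicate 1 (rank 2694 of 9666), 4.88 in replicate 2 (rank 3844 of 13663 nuclear peaks) and 2.48 in replicate 4 (rank 4420 of 6636). The signal is the authors' score of a peak's height on a scale that is not given, so each value is read by its rank in its own list. In none of the libraries was it in the highest 10% of the list. The replicate 2 and replicate 4 peaks do not touch each other, and the replicate 1 peak overlaps both. The 3 summits span 529 bp, and no base is common to all 3 peaks. Where a base common to all 3 peaks was asked for, an alternative chosen after seeing the data, no member had a site in all 3 libraries, and the count over all genes went from 586 to 469. The pooled peak of this site, at chrX:5478204-5478633, had a signal of 8.43 (rank 3132 of 30000), and its summit is at the very position of the replicate 2 summit. A stronger library peak at dlg-1 is in an intron, 775 bp downstream of the start, with a signal of 5.23 in replicate 4 (rank 345). Its summit is inside the ncRNA gene C25F6.26, 21 bp from the start of that gene. No peak of replicate 1 or 2 lies there, and the pooled peak there had a signal of 7.26 (rank 5560).

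The gene ajm-1 had the most pooled summits of the 31 and the highest pooled signal, and both of its shared sites are inside introns beside small RNA genes. Its window of 32.7 kb held 19 pooled summits, 5 in replicate 1, 5 in replicate 2 and 4 in replicate 4. The first shared site, chrX:9085678-9086247, had a signal of 5.02 in replicate 2 (rank 3488) and 5.40 in replicate 4 (rank 299), with no peak in replicate 1. Its pooled peak had a signal of 11.3 (rank 869), and it was the only pooled peak at a member with a q column above 0 (1 of 96, or 1.04%, against 2.96% of the whole list). The second, chrX:9090944-9091565, had a signal of 3.75 in replicate 1 (rank 1824) and 4.99 in replicate 2 (rank 3605), with no peak in replicate 4. Its pooled peak had a signal of 10.1 (rank 1417). The body of ajm-1 holds 5 tRNA genes of 72 bp around this second site, with 3 distinct sequences among them and identities from 95.8% to 100%. Reads from such near-identical copies may not be placed with certainty, and how the authors' alignment treated them is not stated in the labels or deposited texts. Replicates 1, 2 and 4 each had further peaks along the gene that no other library shared. Among them was a peak in a coding exon with a signal of 5.20 in replicate 1 (rank 410). Of the 12 sites of ajm-1, 10 were in a single library, as were 85.0% of all 23785 nuclear sites.

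**Figure D2:**
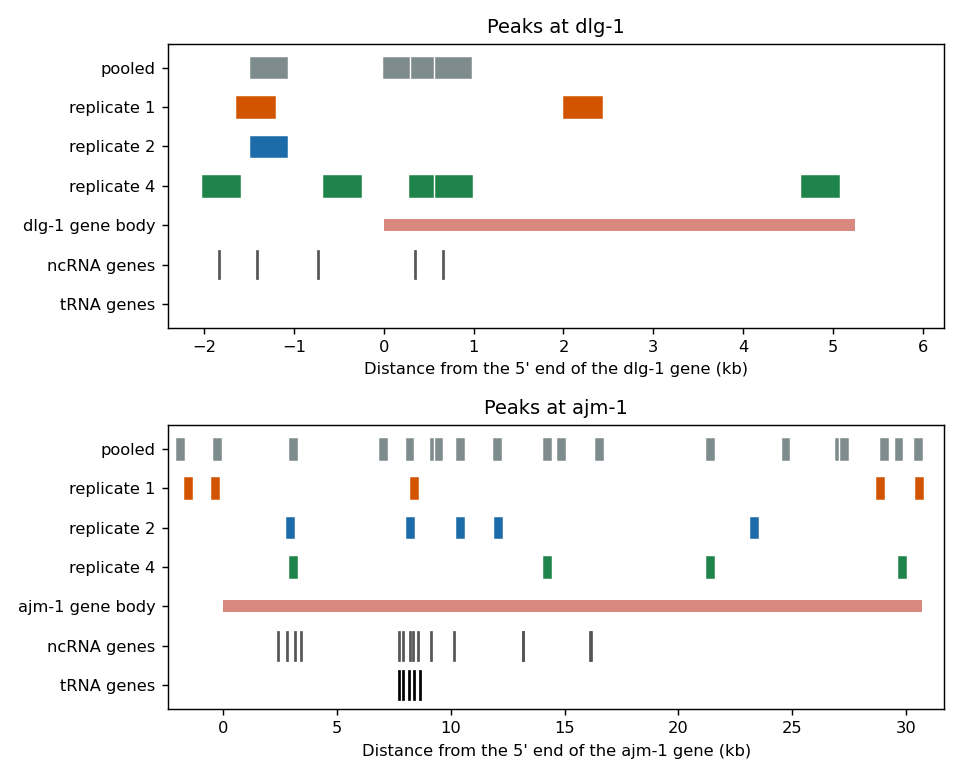
Peaks at dlg-1 (top) and ajm-1 (bottom), by distance in kb from the gene's 5' end along the gene, for the pooled list and each replicate, with the gene body and the annotated ncRNA and tRNA genes. Peaks of the 3 libraries line up at the dlg-1 upstream site only as a chain, and in ajm-1 pairs of libraries line up near 3 kb and 8 kb, the latter among the 5 tRNA genes.

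Of the 6 junction and cytoskeleton genes 2, ajm-1 and dlg-1, had a shared site, where 17.7% of all protein-coding genes had a site in 2 or more libraries. The others had peaks that did not recur at the same place. These 6 genes, with ajm-1 and dlg-1, also include let-413, the Scribble homologue, sma-1, a beta-heavy spectrin, and vab-10, a spectraplakin that links epidermis, cuticle and muscle. Also counted in this group is che-14, a Dispatched-related gene of apical secretion, which by that role is neither a junction nor a cytoskeleton gene. All 6 had a pooled peak, 4 a peak in replicate 1, 5 in replicate 2 and 5 in replicate 4, where 77.3%, 39.9%, 49.9% and 28.7% of all protein-coding genes did. The highest pooled peak of sma-1, in an intron 654 bp from a transcript start, had a signal of 9.02 (rank 2355), and only replicate 2 had a peak there, with a signal of 4.48 (rank 5414). The highest peaks of sma-1 in replicates 1 and 4, 3.78 (rank 1712) and 3.78 (rank 1217), were in coding exons elsewhere in the gene. The longest window, that of vab-10 at 59.6 kb, held 16 pooled summits and 14 sites. None of these sites was in more than 1 library, where 85.0% of all nuclear sites were in a single library. The highest pooled peak of the gene, 454 bp downstream of a vab-10 start, had a signal of 8.93 (rank 2461). Only replicate 2 had a peak there, at 4.92 (rank 3768). For let-413 the highest pooled signal was 7.17 (rank 5800), with a peak in replicate 2 only. For che-14 the highest pooled signal was 4.88 (rank 17866), and no library had a peak there. The only library peak of che-14, in replicate 4, was elsewhere, 159 bp downstream of its start.

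Of the 12 seam and epidermal regulators 1 had a shared site, where 17.7% of all protein-coding genes had a site in 2 or more libraries. Of the 12, 10 had a pooled peak, 4 a peak in replicate 1, 7 in replicate 2 and 2 in replicate 4, beside shares of 77.3%, 39.9%, 49.9% and 28.7% over all protein-coding genes. The shared site is that of blmp-1, at chrI:10409456-10410044, with its middle 441 bp downstream of the start. It had a signal of 2.30 in replicate 1 (rank 7796) and 5.21 in replicate 2 (rank 3115), no peak in replicate 4, and a pooled signal of 3.95 (rank 26473), in the lowest part of the pooled list. The Runx gene rnt-1 had 5 pooled summits in 14.5 kb, the highest with a signal of 6.93 (rank 6555), 3 peaks in replicate 1, 1 in replicate 2 and 0 in replicate 4, all at different places. Its partner bro-1 had no peak in any list, and neither had nhr-73. The Engrailed gene ceh-16 had a peak in replicate 4 only, at 2.25 (rank 5344). The Hes-type gene lin-22, which keeps seam cells from a neural fate, had one in replicate 1 only, at 2.78 (rank 4697). For lin-26, a zinc finger gene of epithelial fate, replicate 1 had a peak of 4.02 (rank 1277), but the nearest protein-coding start to it is that of the neighbour lir-1. Among the nuclear receptor genes of the molting cycle, nhr-23, of the ROR type, had peaks in replicate 2 at 3.92 (rank 7714) and replicate 4 at up to 3.38 (rank 1750), at different places. The Ftz-F1 homologue nhr-25 had 1 peak, in replicate 2, at 3.86 (rank 8385). The genes nhr-67, of the tailless type, nhr-74, another nuclear receptor, and bed-3, a BED zinc finger gene, had 1 peak each, in replicate 2 alone, at 3.21, 4.48 and 5.41. None of these regulators had a pooled signal above the 6.98 of blmp-1 (rank 6363).

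Of the 2 cell fusion genes 0 had a shared site, and of the 11 molting genes 1, qua-1. Over all protein-coding genes the share with a site in 2 or more libraries was 17.7%. The fusogen genes eff-1 and aff-1, whose proteins merge epidermal membranes, had 2 and 1 pooled summits, no summit of replicate 1 or 4 in their windows, and 1 replicate 2 peak, in aff-1, at 4.43 (rank 5604). The highest pooled peak of eff-1, at chrII:8350226-8350655 with a signal of 6.46 (rank 8189), is overlapped by a replicate 4 peak of 3.15 (rank 2105) whose summit lies outside the window. The gene aff-1 lies 12.7 kb from egl-27 itself, and a reproducible peak at chrII:6849252-6849681, with a signal of 22.0 and nearest to the start of tbc-6, lies 11.1 kb from its gene body. This was the reproducible summit nearest to the body of any member, closely followed by that of sma-1, at 11.3 kb. The single pooled peak of aff-1 had a signal of 3.79 (rank 29150), almost at the end of the list. Whether the transgene carries that stretch of chromosome is not stated in the labels. Of the 11 molting and apical matrix genes, 10 had a pooled peak, 8 a peak in replicate 1, 8 in replicate 2 and 3 in replicate 4 (77.3%, 39.9%, 49.9% and 28.7% of all protein-coding genes). The shared sites of qua-1 are both upstream, at 1777 bp and 541 bp from its start. The distal, chrII:8196695-8197372, had a signal of 2.18 in replicate 1 (rank 8728) and 3.86 in replicate 2 (rank 8633), with no peak in replicate 4. The proximal, chrII:8197995-8198523, had 4.68 in replicate 2 (rank 4630) and 2.31 in replicate 4 (rank 5050), with no peak in replicate 1.

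Among the Hedgehog-related genes, wrt-10 had the highest pooled signal, 8.75 (rank 2719), at a summit 582 bp upstream of its start, and only replicate 2 had a peak there, at 5.05 (rank 3443). That summit is nearer to the start of the neighbour ZK1290.13, at 139 bp. The peaks of wrt-10 in replicates 1 and 4 were at other places, with signals of 2.26 and 2.33. The summit of the replicate 4 peak is nearer to the start of wrt-1, at 1593 bp, than to that of wrt-10, at 1974 bp. The highest replicate 2 peak at any member was that of wrt-2, at 6.54 (rank 1147), and grd-10 had 1 peak, in replicate 1, at 3.37 (rank 2513). That grd-10 peak, 1568 bp upstream of its start, is nearer to the start of the neighbour grd-3, at 168 bp. The astacin protease gene nas-37, needed to open the old cuticle, had a pooled signal of 8.38 (rank 3208), a replicate 1 peak of 4.09 (rank 1217) and a replicate 2 peak elsewhere of 3.23 (rank 12783). The zona pellucida genes noah-1 and noah-2 and the Patched-related gene ptr-4 each had peaks in 1 library, as did mlt-10. The fibrillin-like gene fbn-1 and the protease inhibitor gene mlt-11 had peaks in 2 libraries each, at no shared place. Their highest pooled signals were 5.40 for fbn-1 and 6.32 for mlt-11.

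**Figure D3:**
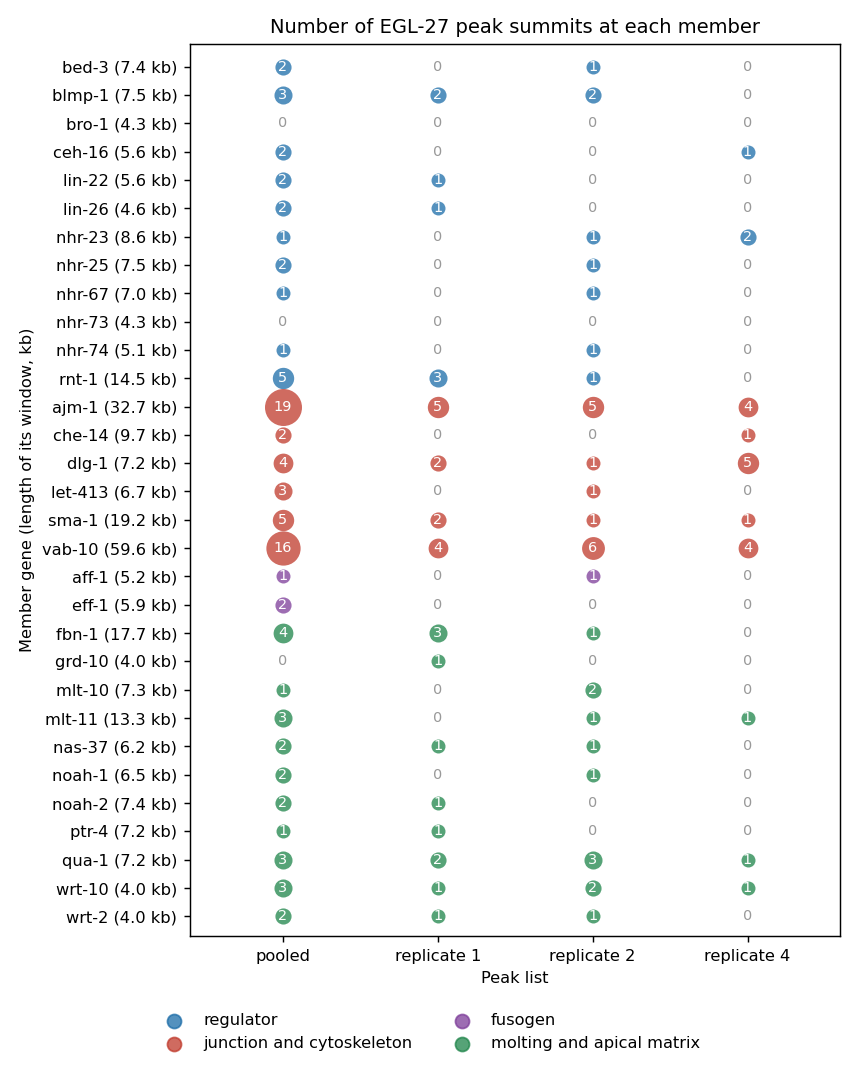
Number of peak summits at each of the 31 members in the pooled list and in replicates 1, 2 and 4, with circle area by number and colour by role, and the length of the window in kb beside each name. The circles are largest for ajm-1 (19 pooled summits) and vab-10 (16), which have the longest windows, and bro-1 and nhr-73 have 0 in every list.

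Counting libraries per gene, 3 members had no library summit in their windows (bro-1, nhr-73 and eff-1), 15 had peaks in 1 library, 7 in 2 and 6 in all 3. Over all protein-coding genes the shares with peaks in 0, 1, 2 and 3 libraries were 28.0%, 36.2%, 24.9% and 10.8%. The 6 members with peaks in all 3 were ajm-1, dlg-1, sma-1, vab-10, qua-1 and wrt-10. A peak in each library was mostly not a peak at 1 place. Of these 6 members 1 had a site in all 3 libraries (16.7%), and of the 2159 such genes 569 did (26.4%). Of the 77 sites at members, 71 were seen in 1 library (92.2%, against 85.0% of all 23785 nuclear sites), 5 in 2 libraries (6.49%, against 12.9%) and 1 in 3 (1.30%, against 2.16%). Among the members' 96 pooled peaks, 38 overlapped no library peak (39.6%, against 35.7% of the list), 52 overlapped peaks of 1 library (54.2%, against 49.5%), 6 those of 2 (6.25%, against 12.6%) and 0 those of 3 (against 2.15%). Of the 96, 10 had their summit at the very base of a replicate 2 summit (10.4%), 3 of a replicate 1 summit and 2 of a replicate 4 summit. Over the whole pooled list the shares were 11.6%, 1.65% and 1.00%.

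The members are long genes, and their counts are set beside those of genes with windows of like length. The median window was 7.20 kb for the members and 4.18 kb for all protein-coding genes. Of the 31, 25 were in the class of longest windows, from 5051 bp up, where all 25 had a pooled peak, against 89.3% of the 6653 genes in that class. In this class 1 of the 25 had a site in all 3 libraries, against 4.22%, and 4 had a site in 2 or more, against 25.8%. Of the 6 members with windows of 10000 bp or more (rnt-1, vab-10, fbn-1, sma-1, mlt-11 and ajm-1), 0 had a site in all 3 libraries, against 6.99% of the 1544 such genes, and 1 had a site in 2 or more, against 38.8%. Per 10 kb of window the members had 3.07 pooled summits, all protein-coding genes 3.10 and the nuclear genome 2.99. In replicates 1, 2 and 4 the members had 0.990, 1.12 and 0.671 summits per 10 kb, and all protein-coding genes 1.01, 1.40 and 0.685. Sites in 2 or more libraries came to 0.192 per 10 kb at members, from 6 sites, and to 0.372 over all genes. By role, pooled summits per 10 kb were 2.56 at regulators, 3.63 at junction and cytoskeleton genes, 2.71 at fusogen genes and 2.71 at molting genes. The 6 members on the X chromosome had 4.63, against 3.24 for all X genes, and 3.42 without ajm-1. The 25 on autosomes had 2.66, against 3.07. Taken alone, ajm-1 had 5.82 per 10 kb, and 6.87% of windows of 10000 bp or more were as dense or denser, about a median of 2.92. Without ajm-1, left out after seeing the data, the members had 2.75.

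**Figure D4:**
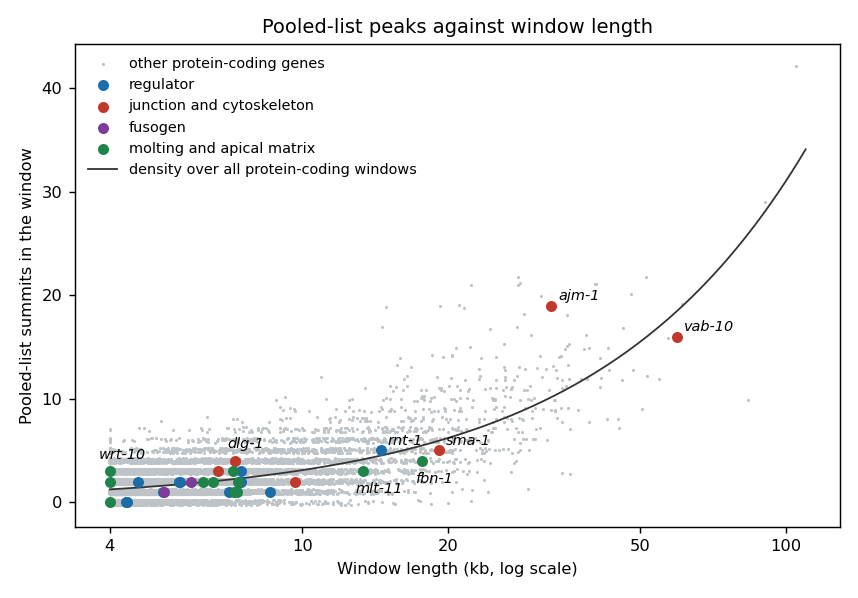
Pooled-list summits in a gene's window against the length of the window in kb on a log scale, for the members by role and for all other protein-coding genes (grey, spread slightly up and down), with a line at the overall density of 3.10 per 10 kb. Most members lie among the grey points at their length, ajm-1 is above the line with 19 summits in 32.7 kb, and vab-10 is below it with 16 in 59.6 kb.

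By signal the members' peaks spread over most of every list, with medians near the middle. Their median signal was 5.06 in the pooled list, whose own median is 5.25. In replicates 1, 2 and 4 it was 2.96, 4.43 and 2.76, beside list medians of 2.78, 4.09 and 2.76. Of the members' peaks, 6 of 96 were in the highest 10% of the pooled list (6.25%), 2 of 31 in that of replicate 1 (6.45%), 1 of 35 in that of replicate 2 (2.86%) and 2 of 21 in that of replicate 4 (9.52%). The best ranks were 869 in the pooled list, for ajm-1, and in the libraries 410 (ajm-1, replicate 1), 1147 (wrt-2, replicate 2) and 299 (ajm-1, replicate 4). The highest pooled signal at a member, 11.3, compares with 45.5 at the head of that list.

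**Figure D5:**
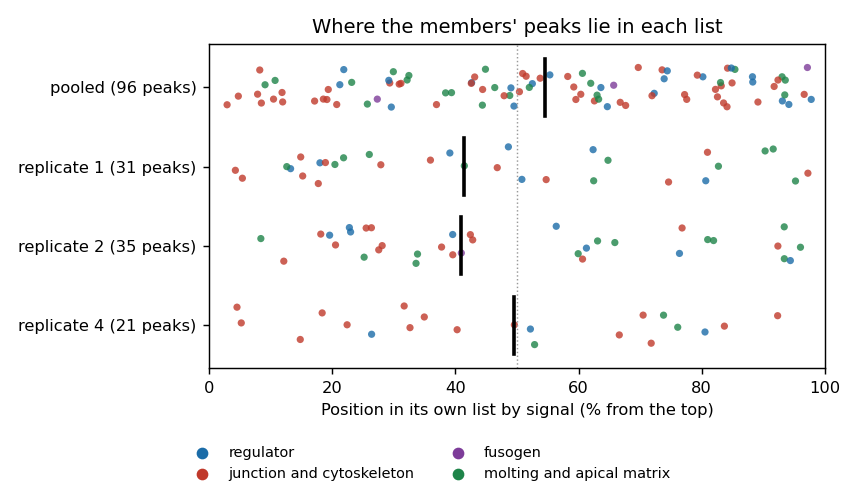
Position of each member peak in its own list by signal, in percent from the top, for the pooled list and replicates 1, 2 and 4, with colour by role, a black bar at the members' median and a dotted line at 50. The medians are at 54.5, 41.4, 40.9 and 49.6, and the peaks spread over nearly the whole of each list.

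The places of the members' pooled summits are set beside the make-up of their windows, with starts taken first. Of the 96, 24.0% were within 500 bp of a start of the member, which takes up 16.8% of the members' window bases. Over all genes the shares were 25.7% of summits and 21.5% of bases. Coding exons held 24.0% of the members' summits and 29.9% of their bases (14.5% and 16.2% over all genes). Introns held 32.3% and 33.3% (22.0% and 24.6% over all genes). For 53 of the 96 the nearest start of any gene, RNA genes included, was that of another gene. In replicates 1, 2 and 4 this held for 20 of 31, 18 of 35 and 11 of 21 peaks. With protein-coding starts alone, another gene was nearest for 17 of the 96 (17.7%), and for 10 of 31, 4 of 35 and 4 of 21 library peaks. No share over all genes stands beside these counts.

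Small RNA genes lay beside some of the members' peaks, a feature looked at after the values were seen. Of the 96 pooled summits, 16 were within 200 bp of an annotated ncRNA gene (16.7%), against 4.83% of the 25632 pooled summits in protein-coding windows and 27.5% of the 102 reproducible summits. The members' windows also hold more such genes, with 1.98 ncRNA genes starting per 10 kb against 0.634 over all windows. The 16 summits were at 8 members, 4 each at ajm-1 and dlg-1, and without ajm-1 the share was 15.6%. Their median signal was 6.24, and that of the other 80 was 4.91. A tRNA gene was within 200 bp of 2 summits (2.08%, against 0.862% of pooled summits in windows and 8.82% of reproducible summits), 1 at ajm-1 and 1 at vab-10. The part of the RNA genes in the members' peaks was not tested.

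Words of the GATA type were about as common at the members' summits as over the whole list. Within 100 bp of the summit, on either strand, TGATAA was found at 22.9% of the 96 (exact interval from 15.0% to 32.6%) and 18.8% of all 30000. AGATAA was at 12.5% and 11.5%, GAGAGA at 17.7% and 14.2%, and GGGCGG at 3.13% and 3.78%. CACGTG was at 1.04% and 3.90%, and TTTCAAA at 17.7% and 26.2%, with the background inside the members' interval in each case. These intervals take the 96 summits as independent, though 19 are at ajm-1 and 16 at vab-10, so they may be too narrow. AGATAA and TGATAA differ in their first base, and none of the 6 words contains another. The median GC content of these windows was 38.8% at members and 35.8% over the list.

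A list of 58 other epidermal and molting genes, with no member among them, was put together from textbook roles with earlier results of these data known. These genes were counted by the same rule. None had a reproducible peak (0.566% of all protein-coding genes), and 54 had a pooled peak (93.1%, against 77.3%). A peak in replicates 1, 2 and 4 was at 35 (60.3%), 41 (70.7%) and 26 (44.8%), against 39.9%, 49.9% and 28.7%. The windows of the 58 genes sum to 589.6 kb, and their shares are not set beside genes with windows of like length. A site in all 3 libraries was found at 2 of them (3.45%, against 2.93%): lin-42, the Period-related gene that sets molting rhythm, and wrt-5, a Hedgehog-related gene. The lin-42 site, chrII:1246647-1247334, is in an intron and had signals of 2.72, 5.12 and 4.46 in replicates 1, 2 and 4. The wrt-5 site, chrIV:4049491-4050144, had 2.91, 8.91 and 2.39, and the nearest protein-coding start to it is that of pcn-1. A site in 2 or more libraries was found at 13 (22.4%, against 17.7%, where the 31 members had 12.9%), among them the Patched-related gene ptr-23, the spectrin gene spc-1, the polarity gene lgl-1 and myrf-1, a regulator of molting. Sites in 2 or more libraries came to 0.356 per 10 kb of their windows, close to the 0.372 over all genes. Pooled summits came to 3.54 per 10 kb, against 3.10 over all genes.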

How the data were processed

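EGL-27 ChIP-seq peak lists of 3 libraries from 1 strain were used on ce11, as the authors deposited them. Each library list was made from its alignment and a control, the pooled list from the 3 alignments and the control, and the reproducible list from these by irreproducible discovery rate (IDR) thresholding, per the deposited README texts. The signal of a peak is the authors' deposited value, and the q column was read as a score, since the deposited values fall below 0 in the pooled list. For the aligner, the peak caller and the IDR cutoff: not given in the sources used here. Depth is unknown, as no read numbers entered the work. Signals were ranked within a list only. The control experiment and the ce10 lists were not analysed here.

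Genes came from Ensembl release 115. Peaks were assigned to all genes whose window held the summit, so a peak can count for neighbours. Sites were chains of library peaks overlapping by 1 bp or more, and a lone peak was also a site. Summit places were checked in the order start, coding exon, noncoding exon, intron. Noncoding exons and places outside the gene body were counted as other. Length classes are unequal in size because 8611 genes share the shortest window of 4001 bp. No test was run, since there is 1 group, and members are set beside all protein-coding genes. The rule for values per library names members with a reproducible peak or a site in all 3 libraries and the 5 with the highest pooled signal. Other values were chosen after they were seen. The members and lists were chosen with earlier results of these data known. Alternatives changed distances, assignment, list depth, overlap and replicates. The assignment and the joining of sites were tested on simulated data. Python 3.11.15, pandas 2.3.3, numpy 2.4.6 and SciPy 1.17.1 were used.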

Additional observations from a re-analysis of the deposited data

How the results depend on the processing

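The count of members with a reproducible peak was 0 under every alternative run on it. Over all protein-coding genes the share under these alternatives ran from 0.285% to 1.10%. No paired analysis was possible because there is 1 group and no comparison between groups. Without reads no list could be called again, so replicates were left out of the shared sites alone. Sites in both of the libraries kept were then found at 1 to 4 members, and the 1 was without replicate 2. Over all protein-coding genes the shares were 7.75%, 6.09% and 10.4% without replicates 1, 2 and 4. Below, the share of all genes under the same setting stands in parentheses.

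The other shared-site counts rest on few genes. At 500 bp from a start, 0 members had a site in all 3 libraries (1.74%) and 2 in 2 or more (11.5%). At 5000 bp, 2 had a site in all 3 libraries (5.42%) and 17 a peak in replicate 4 (47.2%). In the higher 50% of each list by signal the counts were 11 in replicate 2 (30.1%), 6 in replicate 4 (15.9%), 0 with a site in all 3 (1.11%) and 2 in 2 or more (7.54%), and the members had 1.34 pooled summits per 10 kb (1.57 over all genes). At the length of the shortest list, 11 members had a replicate 2 peak (29.3%). In the 1000 highest nuclear peaks of each library the counts were 1, 0 and 2 in replicates 1, 2 and 4 (5.69%, 5.40% and 5.32%), with 0 sites shared by all 3 (0.275%) and 0 by 2 or more (1.36%). With summits within 100 bp, 0 members had a site in all 3 libraries (0.826%) and 1 in 2 or more (8.56%). With 50% reciprocal overlap 0 had a site in all 3 (1.72%), and with a base common to all 3 peaks also 0 (2.35%), which was chosen after seeing the data.

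Within 50 bp of the summit the shares of words were 8.33% (GAGAGA), 10.4% (TGATAA), 6.25% (AGATAA), 0% (CACGTG), 0% (GGGCGG) and 10.4% (TTTCAAA). Over the whole list they were 7.73%, 9.77%, 5.94%, 2.08%, 1.92% and 14.03%.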
